A study of Mus musculus with 16 samples.

Results

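The 5 nuclear long noncoding RNA genes Malat1, Airn, Dleu2, Lncpint and 2700054A10Rik of the mouse were followed through crosslinking and immunoprecipitation libraries of PGC-1α from primary hepatocytes. A cluster is a region of piled-up reads for which the caller gives a p-value and an enrichment relative to input, and it was given to a gene when its midpoint lay inside the gene on the same strand (mm10, GENCODE M21). The 5 genes, of 13396 with a cluster, held 2486 of 1331383 clusters and 123 of the 8478 rows of the authors' reproducible lists. The genes were chosen by their numbers of clusters and listed peaks in these same libraries, so those numbers are given as a description.

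Hepatocytes freshly isolated from C57BL/6J livers were labelled untreated or glucagon. The protocol, worded alike for every sample, gives starvation overnight and then 3 h with glucagon at 200 nM. Glucagon is the islet hormone that signals fasting to the liver. RNA was linked to protein with 254 nm light at 400 mJ/cm2, and single-end eCLIP was run on a lower and an upper band. Each of the 4 groups (control lower, control upper, glucagon lower, glucagon upper) had 2 immunoprecipitated libraries, and the 8 input samples were not analysed here. The labels name no knockout or second antibody, and they leave unsaid if the replicates came from different cultures or mice. The p-values therefore reflect library-to-library spread alone, part of which can be technical. The 8 hepatocyte markers all had clusters, 309 to 618 per library in sum. Marker sets of 5 genes each for Kupffer, endothelial, stellate, bile duct and red blood cells had 0 to 12 clusters per library. Fewer cells of a type and less RNA per cell cannot be told apart in such bulk samples. The files give no read depth. Glucagon lower band replicate 1 stood apart with 26279 clusters, against 97629 to 260814 in the other libraries. Values without it are given where they differ in direction.

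PGC-1α is a transcriptional coactivator of the fasting programme of the liver, and its carboxy-terminal region carries an RS-rich stretch and an RNA recognition motif. Long noncoding RNAs of the nucleus differ in how they work. Some, such as Malat1 in nuclear speckles and Neat1 in paraspeckles, are abundant transcripts with few or no introns that stay in nuclear bodies. Others, such as Airn, act on the chromosome from which they are transcribed, and others again, such as Dleu2, are spliced hosts of microRNAs.

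The sequences under the sites show what the immunoprecipitated RNA looked like where an annotated transcript covers it. They are read 5′ to 3′ on the gene's strand from GENCODE M21 transcripts (GRCm38, the build of mm10). The first 4 are stretches of Dleu2 and Lncpint sites enriched in 7 or 8 libraries. Capitals mark bases that lay under an enriched peak, a cluster with −log10 p of at least 3 and log2 fold of at least 3, in at least 4 libraries. The 2 Malat1 stretches are given for contrast, since they had the most libraries with log2 fold of at least 1 at −log10 p of at least 3 in that gene. Capitals there mark bases under such clusters in at least 4 libraries.
Dleu2, chr14:61681410-61681494, minus strand: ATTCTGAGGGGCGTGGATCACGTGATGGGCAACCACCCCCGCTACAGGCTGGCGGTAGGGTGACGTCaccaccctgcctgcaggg
Dleu2, chr14:61648684-61648822, minus strand: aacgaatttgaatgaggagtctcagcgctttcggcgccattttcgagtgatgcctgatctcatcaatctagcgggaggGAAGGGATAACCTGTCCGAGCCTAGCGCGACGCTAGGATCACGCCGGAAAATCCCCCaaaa
Lncpint, chr6:31216278-31216366, minus strand: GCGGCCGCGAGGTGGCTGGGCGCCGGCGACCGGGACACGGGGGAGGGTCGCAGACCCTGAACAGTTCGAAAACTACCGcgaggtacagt
Lncpint, chr6:31216136-31216272, minus strand: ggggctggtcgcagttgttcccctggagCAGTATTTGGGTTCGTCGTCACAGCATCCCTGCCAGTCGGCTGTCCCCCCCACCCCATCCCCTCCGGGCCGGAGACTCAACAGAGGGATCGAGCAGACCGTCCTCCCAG
Malat1, chr19:5800853-5800943, minus strand: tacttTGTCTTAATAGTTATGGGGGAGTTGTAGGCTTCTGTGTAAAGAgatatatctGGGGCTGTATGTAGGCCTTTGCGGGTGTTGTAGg
Malat1, chr19:5797347-5797440, minus strand: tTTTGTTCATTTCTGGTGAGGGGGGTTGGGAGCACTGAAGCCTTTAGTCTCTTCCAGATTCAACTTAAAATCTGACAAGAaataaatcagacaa

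The printed Dleu2 stretches held 65.9% and 53.2% G or C, and those of Lncpint 69.7% and 65.7%. Each of these stretches covers only part of its site, the second one of Dleu2 139 of 221 nt. The Malat1 stretches held 44.0% and 39.4%, near the 42.5% of the whole 6983-nt transcript. No such share of the whole gene was computed for Dleu2 and Lncpint, so nothing is read from their values. The first Dleu2 stretch is intronic for Dleu2 and was read from a transcript of Gm37472, a gene that overlaps it on the same strand. The sequence of the Airn and 2700054A10Rik sites is not used here.

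Malat1, the speckle RNA that is among the most abundant long noncoding transcripts of many cells, carried many clusters and no enriched peak. The gene lies at chr19:5795690-5802672 on the minus strand, and all of it is exonic. It had 84 and 101 clusters in the control lower band, 101 and 114 in the control upper band, 43 and 113 in the lower band after glucagon, and 63 and 103 in the glucagon upper band, 722 in all. None of the 722 was enriched. For counting error only, with clusters taken as independent, that allows a share of up to 0.416%. The highest log2 fold of any of them was 1.68. Of these clusters 259 had a −log10 p of at least 3, and 27 were at the cap of 400. The median log2 fold per library was 0.23 and 0.30 in the control lower band, −0.13 and −0.06 in the control upper band, −0.04 and 0.34 in the lower band after glucagon, and −0.32 and −0.25 in the glucagon upper band. These values straddled the level of the input, and 50.1% of the clusters lay above it. Neat1, the neighbouring paraspeckle RNA, had 2118 clusters by the same count, of which 78.8% were enriched.

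Some stretches of Malat1 were above the input and others below it in every library. No cluster midpoint lay in the first 1500 nt, and the nearest was 1520 nt from the 5′ end. In windows of 250 nt, a width chosen after the values were seen, the median log2 fold at 5001 to 5250 nt was above 0 in all 8 libraries, from 0.29 to 1.07. At 4001 to 4250 nt it was below 0 in all 8, from −1.29 to −0.55. The printed stretch at chr19:5797347-5797440, 5233 to 5326 nt from the 5′ end, had a highest log2 fold of 1.19 ± 0.34 (SD, n = 8), from 0.73 to 1.68. The stretch at chr19:5800853-5800943, 1730 to 1820 nt from the 5′ end, had 1.06 ± 0.27 (SD, n = 8).

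**Figure D1:**
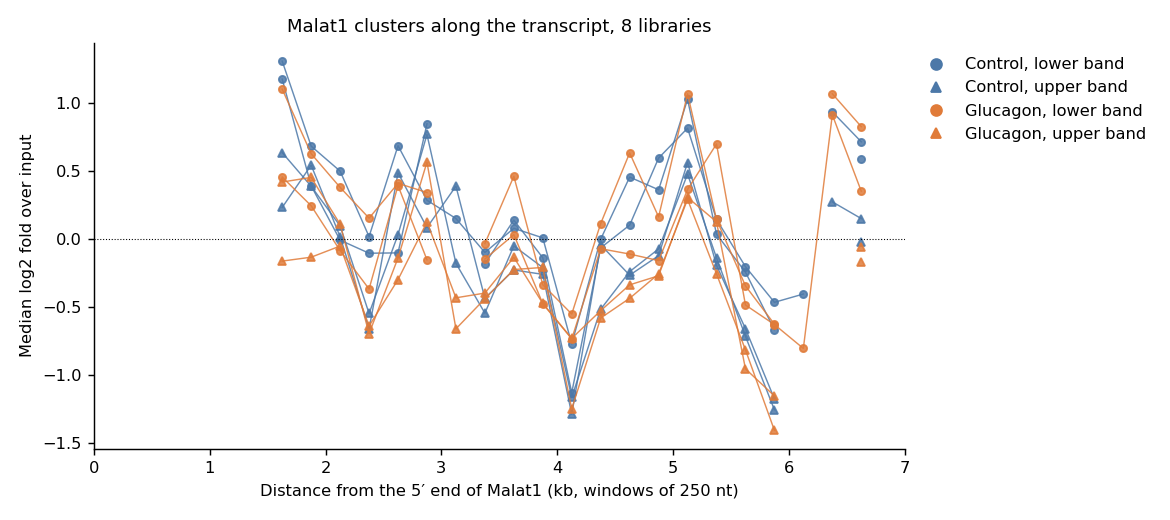
Median log2 fold over input of Malat1 clusters (y axis) in windows of 250 nt along the transcript (x axis, kb from the 5′ end), with 1 line per library, colour for treatment and marker for band. All 8 lines lie above 0 at 5001 to 5250 nt and below 0 at 4001 to 4250 nt.

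Airn, the imprinted antisense RNA that crosses Igf2r on the opposite strand and silences neighbours on its own chromosome, was enriched only at its beginning. The gene spans chr17:12741311-12860136 on the plus strand. Its enriched peaks numbered 7 and 9 in the control lower band, 10 and 11 in the control upper band, 4 and 9 in the lower band after glucagon, and 5 and 14 in the glucagon upper band, 69 of 506 clusters. All 69 lay between 187.5 and 1873 nt from the 5′ end and in introns. None was exonic, while exons make up 3.03% of the gene and 1 of its 506 clusters was exonic. For counting error only, 0 of 69 allows a share of up to 4.35%. That limit takes peaks of different libraries as independent, though they merged into 11 sites. The other 437 clusters spread over the gene, and 11.0% of them lay within 5 kb downstream of an annotated 5′ end.

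The Airn peaks merged into 11 sites. The leading one, chr17:12742266-12742613, was enriched in all 8 libraries. Its highest log2 fold was 3.93 and 4.66 in the control lower band, 4.79 and 4.74 in the control upper band, 3.73 and 5.07 in the lower band after glucagon, and 4.10 and 4.55 in the glucagon upper band, 4.45 ± 0.47 (SD, n = 8). The second, chr17:12741460-12741640, was enriched in all 8 as well, at 3.93 ± 0.85 (SD, n = 8) and from 3.05 to 5.70, and both sites had rows in all 4 reproducible lists. The next 3 sites, at 571.5, 680.5 and 903 nt from the 5′ end, were enriched in 6 libraries each. The highest single value of any member, 6.23, came from the site at 1374.5 nt in control lower band replicate 2, where the other 4 libraries with a cluster had 2.12 to 3.82.

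Dleu2, the spliced host transcript of miR-15a and miR-16-1, had its enriched peaks in 2 places. The gene lies at chr14:61602839-61682373 on the minus strand. It had 12 and 14 enriched peaks in the control lower band, 12 and 11 in the control upper band, 1 and 6 in the lower band after glucagon, and 4 and 11 in the glucagon upper band, 71 of 381 clusters. Glucagon lower band replicate 1 had only 3 Dleu2 clusters in all. Of the enriched peaks 84.5% lay within 5 kb downstream of an annotated 5′ end, against 29.7% of the other clusters. Of the 71 peaks 13, or 18.3%, were exonic, against 15.0% of all 381 clusters.

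One Dleu2 group lay near the outermost 5′ end. Its leading site, chr14:61681410-61681520, the source of the first sequence above, lay 908 nt from that end and was enriched in all 8 libraries. The highest log2 fold there was 5.46 and 3.11 in the control lower band, 5.93 and 4.38 in the control upper band, 5.05 and 3.09 in the lower band after glucagon, and 3.36 and 3.05 in the glucagon upper band, 4.18 ± 1.18 (SD, n = 8). The 8 libraries spread widely there, also between replicates of a group. The same-strand gene Gm37472, at chr14:61677443-61681494, has its 5′ end within this site. It shares 19 of the 71 enriched peaks of Dleu2, so those cannot be told apart between the transcripts.

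The other Dleu2 group lay deep in the gene, where the annotation starts shorter Dleu2 transcripts. Site chr14:61648684-61648904, partly exonic and 33579 nt from the outermost 5′ end, was enriched in 7 libraries at 4.37 ± 0.89 (SD, n = 7 libraries with a cluster). Site chr14:61648306-61648467, in an intron next to it, was the most even of the gene's leading sites, at 4.36 ± 0.34 (SD, n = 7) and from 3.73 to 4.67. Glucagon lower band replicate 1 had no cluster at either.

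The microRNA hairpins inside Dleu2 were not enriched. The 5p strands of the pair share their seed, bases 2 to 8, in capitals (RefSeq, GRCm38.p6).
mmu-miR-15a-5p: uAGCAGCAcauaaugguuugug
mmu-miR-16-5p: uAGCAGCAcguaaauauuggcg
Over the Mir15a hairpin lay 3 clusters from 2 libraries, with log2 folds from 0.61 to 1.93 and a highest −log10 p of 0.92. Over the Mir16-1 hairpin 2 clusters overlapped from 2 libraries, with log2 folds of −1.38 and −1.18.

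Lncpint, a p53-induced RNA that binds Polycomb repressive complex proteins, had the most enriched peaks of the 5 genes. It lies at chr6:31082565-31220488 on the minus strand. The libraries held 19 and 21 enriched peaks in the control lower band, 17 and 22 in the control upper band, 8 and 24 in the lower band after glucagon, and 15 and 26 in the glucagon upper band, 152 of 705 clusters. This was the second highest count of 859 long noncoding genes with a cluster, after Neat1, with Dleu2 in rank 4, Airn in rank 6 and 2700054A10Rik in rank 9. These ranks are a description, since the genes were chosen by their clusters and listed peaks. The Lncpint median log2 fold per library lay between 1.92 and 2.35.

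Lncpint peaks made 34 sites, and the 6 leading ones lay next to each other, 3157 to 4325 nt from the outermost 5′ end. Site chr6:31216474-31216866 had log2 folds of 4.73 and 4.64 in the control lower band, 4.78 and 4.86 in the control upper band, 3.89 and 4.45 in the lower band after glucagon, and 4.12 and 5.70 in the glucagon upper band, 4.65 ± 0.54 (SD, n = 8). The exonic site chr6:31216278-31216415, whose sequence is printed, had 4.08 ± 0.52 (SD, n = 8). The intronic site chr6:31217009-31217158 had 4.07 ± 0.55 (SD, n = 8). These 3 were enriched in all 8 libraries and had rows in all 4 reproducible lists. Of the 34 sites 18 were enriched in 1 library only, and those included weaker sites deeper in the gene, up to 32151.5 nt from the 5′ end.

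2700054A10Rik, a long noncoding gene with no well-known function, had no enriched peak near an annotated 5′ end and no site shared by most libraries. It lies at chr17:13482553-13668891 on the minus strand, and all of its 172 clusters also lie inside AC174800.1, a long noncoding gene on the same strand, so the 2 genes cannot be told apart here. It had 3 and 0 enriched peaks in the control lower band, 12 and 8 in the control upper band, 0 and 5 in the lower band after glucagon, and 6 and 4 in the glucagon upper band, 38 in all. None of the 38 lay within 5 kb downstream of an annotated 5′ end. For counting error only, this allows a share of up to 7.89%. That limit takes peaks of different libraries as independent, though they merged into 17 sites. Exons make up 2.81% of the gene, 171 of its 172 clusters were intronic, and so were all 38 peaks. They lay 13676 to 83310.5 nt from the 5′ end, with a median of 77832.8. No site was enriched in more than 4 libraries. The leading one, chr17:13591121-13591248, had 2.29 and 2.93 in the control lower band, 3.66 and 4.05 in the control upper band, 3.07 in glucagon lower band replicate 2, and 3.34 and 2.42 in the glucagon upper band, so its libraries lay on both sides of the threshold of 3.

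**Figure D2:**
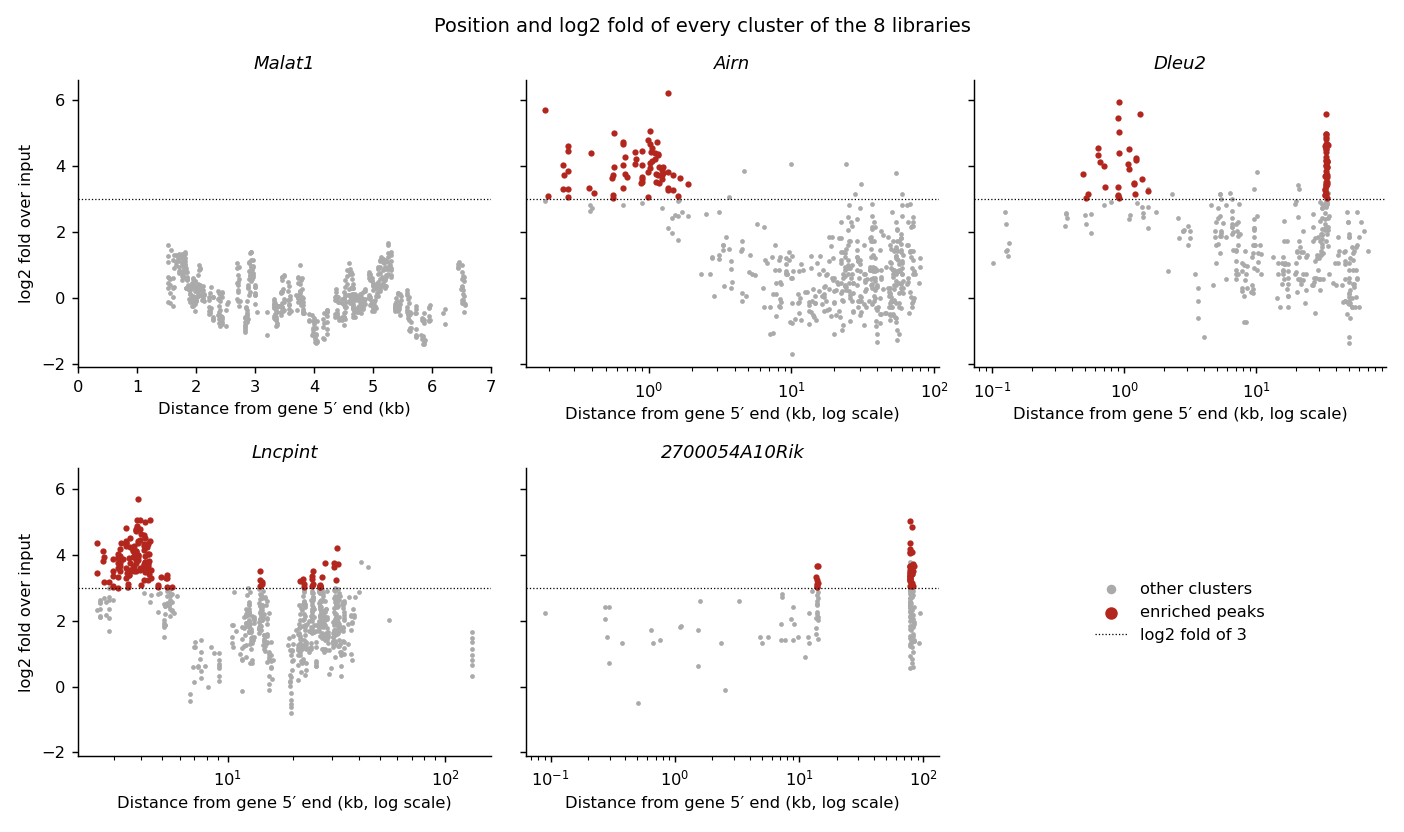
Log2 fold over input (y axis) of every cluster of the 8 libraries against its distance from the gene's 5′ end in kb (x axis, log scale except for Malat1), with enriched peaks in red and other clusters in grey. Airn peaks lie within 1873 nt of the 5′ end, Dleu2 has 2 groups, and Malat1 stays under a log2 fold of 1.68.

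**Figure D3:**
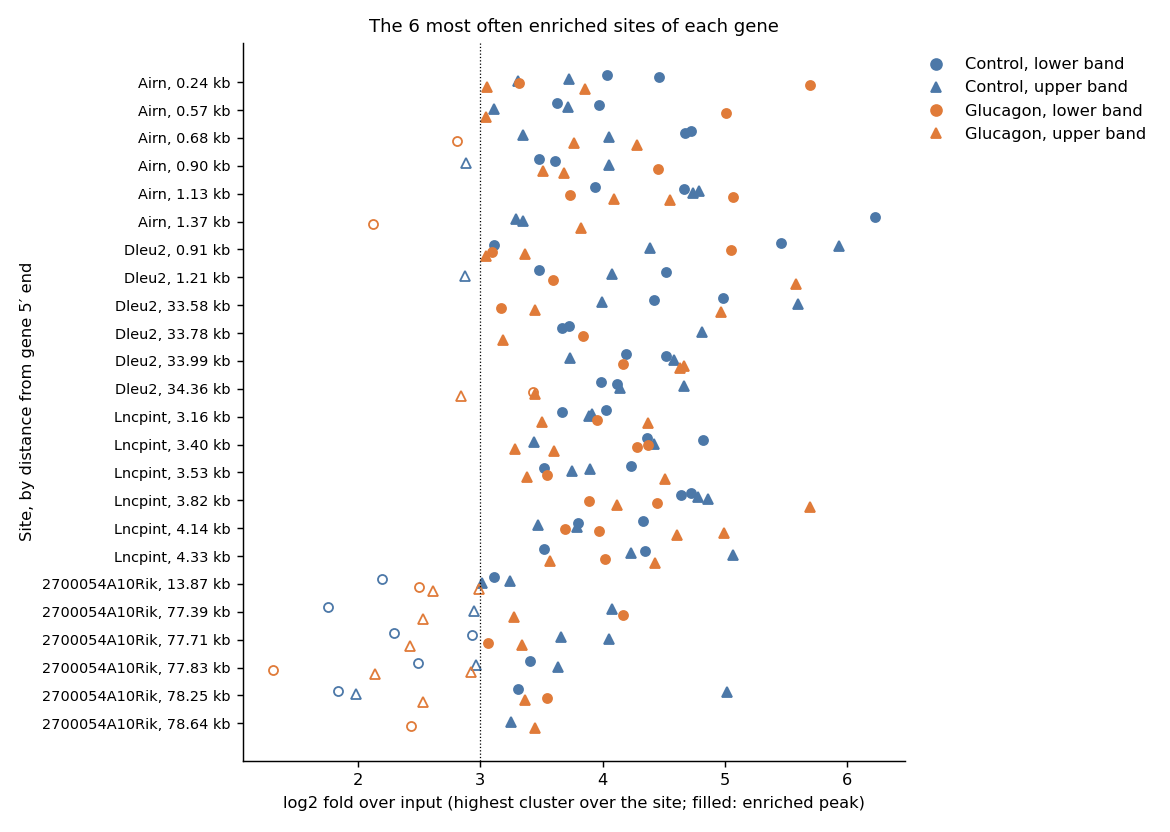
Highest log2 fold over input (x axis) at the 6 most often enriched sites of each gene (y axis, by distance from the gene's 5′ end), 1 marker per library, filled where the cluster was an enriched peak and missing where the library had no cluster. The sites of 2700054A10Rik straddle a log2 fold of 3, and those of Lncpint lie above it in every library with a cluster.

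The place of the enriched peaks was set against the gene's other clusters. Clusters within 5 kb downstream of an annotated 5′ end, a distance chosen after the values were seen, had a median log2 fold above that of the other clusters by 2.58 ± 0.66 in Airn (SD, n = 8, higher in 8 of 8 libraries). The difference was 1.49 ± 0.26 in Lncpint (SD, n = 8, 8 of 8) and 1.26 ± 0.46 in Dleu2 (SD, n = 7, 7 of 7). It was −0.83 ± 0.45 in 2700054A10Rik (SD, n = 6, higher in 0 of 6) and −0.56 ± 0.11 in Malat1 (SD, n = 8, higher in 0 of 8). These 2 values rest on few clusters. Only 2 to 6 per library lay within 5 kb in 2700054A10Rik, and only 3 to 8 lay outside it in Malat1. Over 4847 genes the median difference was 0.17, and 64.4% of genes were above 0. These are descriptions with no test.

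A planned test compared clusters upstream and downstream of the gene's midpoint, by exact sign flips over libraries with Benjamini-Hochberg adjustment over 5857 genes. The upstream clusters had the higher median log2 fold by 1.19 ± 0.54 in Dleu2 (SD, n = 7, higher in 7 of 7). In Lncpint the difference was 1.08 ± 0.51 (SD, n = 7, 7 of 7). Each had exact sign-flip p = 0.0156, the smallest 7 libraries can give, and adjusted p = 0.0758. Lncpint had only 8 clusters downstream of its midpoint, 1 per library except 2 in control lower band replicate 1, so each of its downstream values is 1 or 2 clusters. In Malat1 the difference was 0.23 ± 0.12 (SD, n = 8, 8 of 8), below the median of all genes, 0.30. Its exact sign-flip p was 0.00781, the smallest 8 libraries can give, and its adjusted p 0.0758. With only clusters of −log10 p of at least 3 the Malat1 difference was 0.11 (exact sign-flip p = 0.0781, adjusted p = 0.208). In Airn the difference was −0.49 ± 0.58 (SD, n = 7, higher in 1 of 7, exact sign-flip p = 0.0625, adjusted p = 0.157). Its downstream values rest on 4 to 9 clusters per library. With the mean in place of the median the Airn difference was −0.052 (exact sign-flip p = 0.797, adjusted p = 0.868). None of these passed, and of all genes 0% passed at an adjusted p of 0.05 in the exact sign-flip test, while 1974 genes had an unadjusted p under 0.05. 2700054A10Rik had 1 cluster downstream of its midpoint and was not tested.

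Glucagon was compared with control on enriched peaks per 1000 enriched peaks of the library, by exact permutation of treatment labels within bands. The design gives no p under 0.0556, so no gene could pass after adjustment over the 875 genes tested. Dleu2 had 2.92 and 2.46 per 1000 in the control lower band against 1.02 and 2.13 with glucagon, and 2.43 and 1.69 in the control upper band against 1.22 and 1.45 with glucagon. On this scale each glucagon library was below both control libraries of its band, while the pooled ranges overlapped. The difference was −0.92 per 1000 (control 2.37 ± 0.51, glucagon 1.45 ± 0.48, SD, n = 4 each; exact permutation p = 0.0556, adjusted p = 0.304), −1.11 in the lower and −0.73 in the upper band. Of all 875 genes 14.7% were lower with glucagon at that p and 3.54% higher, and 1 of the 4 members tested was lower at that p. Without glucagon lower band replicate 1 the Dleu2 difference was −0.64. Per 1000 clusters of the library it was −0.024 (exact permutation p = 0.222, adjusted p = 0.715). As an unscaled number of peaks it was −6.75 (exact permutation p = 0.111, adjusted p = 0.496). The size of the Dleu2 difference thus depended on the scaling.

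Lncpint had 4.62 and 3.69 per 1000 in the control lower band against 8.17 and 8.52 with glucagon, and 3.45 and 3.37 in the control upper band against 4.56 and 3.42 with glucagon. The difference of 2.39 (exact permutation p = 0.111, adjusted p = 0.432) came mostly from the lower band, 4.19 against 0.58 in the upper band, and as an unscaled number of peaks it was −1.5. The glucagon lower band libraries had the fewest enriched peaks in all, 979 and 2816, and Neat1 had 78.7 and 104 per 1000 there against 36.2 to 49.0 in the other libraries. With Neat1 left out of the library totals the Lncpint difference was 2.74, and per 1000 clusters of the library it was 0.074. Without glucagon lower band replicate 1 it was 2.47, and without replicate 2 of that group 2.30. The cause of the Lncpint difference was not tested. Airn had 1.70 and 1.58 in the control lower band against 4.09 and 3.20 with glucagon, and 2.03 and 1.69 against 1.52 and 1.84 in the upper band. Its difference was 0.91 per 1000 (exact permutation p = 0.278, adjusted p = 0.589), or −1.25 as an unscaled number. For 2700054A10Rik the difference was −0.07 (exact permutation p = 0.944, adjusted p = 1), and it was 0.38 without glucagon lower band replicate 1.

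**Figure D4:**
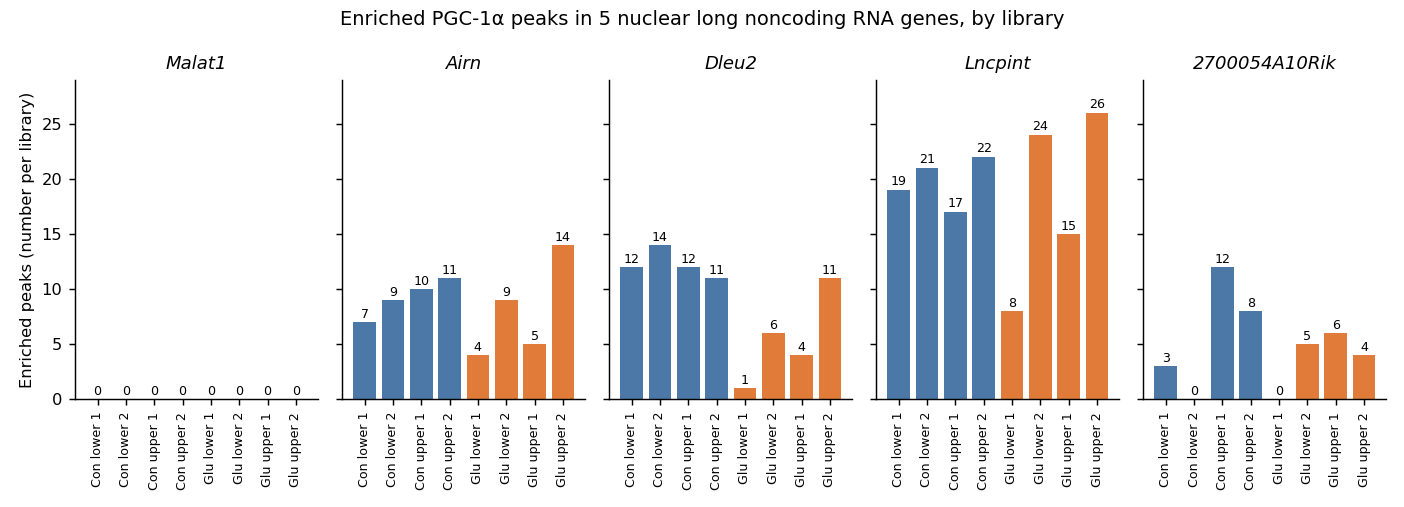
Number of enriched peaks (y axis) in each of the 8 libraries (x axis) for the 5 genes, control in blue and glucagon in orange. Malat1 has 0 in every library, Lncpint 8 to 26, and Dleu2 1 to 11 with glucagon against 11 to 14 in control libraries.

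The bands were compared the same way, with band labels permuted within treatments. Lncpint was lower in the upper band within both treatments, by −2.55 per 1000 (lower band 6.25 ± 2.45, upper band 3.70 ± 0.57, SD, n = 4 each; exact permutation p = 0.0556, adjusted p = 0.412), −0.74 in control and −4.36 with glucagon, while its unscaled number was higher in the upper band by 2. At that p 4% of the 875 genes were lower in the upper band and 9.49% higher. With a log2 fold of at least 4 the Lncpint band difference was only −0.13 (exact permutation p = 0.944). The highest Lncpint rates, 8.17 and 8.52 per 1000, came from the glucagon lower band libraries, which had the fewest enriched peaks in all, 979 and 2816. Airn (−0.87), Dleu2 (−0.44) and 2700054A10Rik (0.88) had exact permutation p of 0.278, 0.278 and 0.222 (adjusted p 0.693, 0.693 and 0.655). As unscaled numbers the Airn and Dleu2 differences were 2.75 and 1.25.

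Malat1, with no enriched peak, could be compared between groups only by the median log2 fold of its clusters. This measure was chosen after the values were seen and was run on the 4682 genes with a cluster in all 8 libraries. The 4 upper band libraries, −0.32 to −0.06, all lay below the 4 lower band libraries, −0.04 to 0.34. The difference was −0.40 (exact permutation p = 0.0556, adjusted p = 0.713), against a median over all genes of −0.27. With only clusters of −log10 p of at least 3 it was −0.097 (exact permutation p = 0.389, adjusted p = 0.567; adjusted p from 0.160 to 1 over all alternatives). At that smallest p 3.84% of genes were lower in the upper band and 3.27% higher. With glucagon the Malat1 difference was −0.15 (exact permutation p = 0.167, adjusted p = 0.793), where the median over all genes was 0.32. It was −0.055 without glucagon lower band replicate 1 and −0.25 without glucagon lower band replicate 2. At the smallest p 4.16% of genes were higher with glucagon and 0.748% lower.

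For the other members the glucagon difference in median log2 fold was 0.47 in Airn, 0.24 in Dleu2, −0.02 in Lncpint and 0.39 in 2700054A10Rik, with exact permutation p from 0.333 to 0.944 and adjusted p from 0.793 to 0.977. The Airn and Dleu2 values rest on glucagon lower band replicate 1, where the medians of 12 and 3 clusters were 3.18 and 3.79, and without it they were −0.12 and −0.35. In the bands the differences were −0.84, −0.65, −0.16 and 0.04 in the same order, with exact permutation p of 0.111 or more and adjusted p from 0.713 to 0.955. The Airn and Dleu2 band differences were −0.26 and −0.055 without glucagon lower band replicate 1, and −1.43 and −1.24 without glucagon lower band replicate 2. With only clusters of −log10 p of at least 3 the Airn band difference was −0.074. Lncpint varied least across libraries, with 2.13 ± 0.19 in control and 2.12 ± 0.14 with glucagon (SD, n = 4 each).

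**Figure D5:**
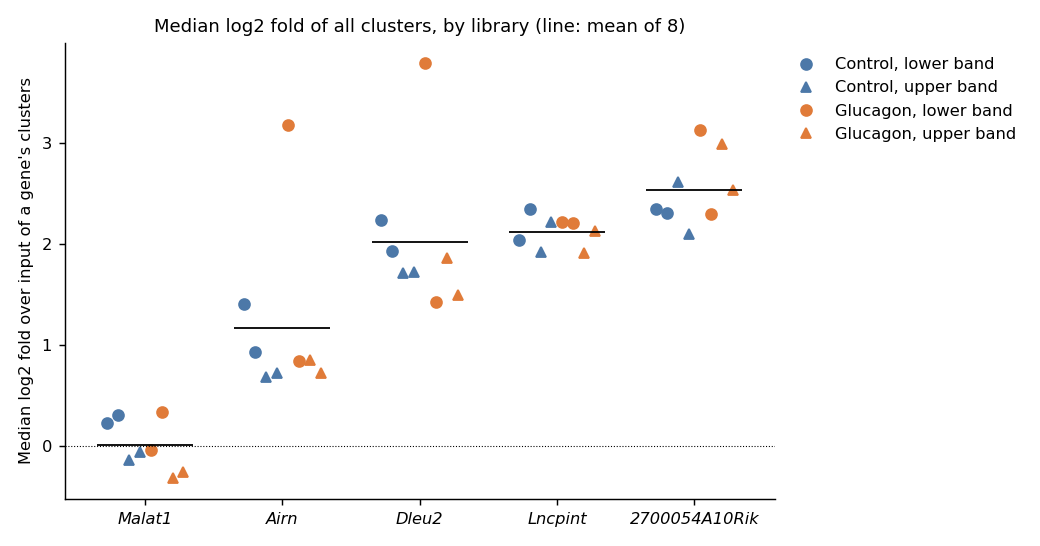
Median log2 fold over input of a gene's clusters (y axis) in each of 8 libraries for the 5 genes (x axis), colour for treatment, marker for band and a line at the mean. The 4 upper band values of Malat1, −0.32 to −0.06, lie below its 4 lower band values, and the high Airn and Dleu2 points, 3.18 and 3.79, are glucagon lower band replicate 1.

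The reproducible lists, whose fold per peak is the authors', held rows of 4 of the genes. Lncpint had 13 rows in the control lower band list, 22 in the control upper, 8 in the glucagon lower and 18 in the glucagon upper band list. Airn had 7, 9, 3 and 8 in the same order, Dleu2 13, 11, 0 and 4, and 2700054A10Rik 0, 6, 0 and 1, while Malat1 had none. Of 13396 genes with a cluster 9.4% had a row in at least 1 list, as had 4 of the 5 members, and 0.687% had one in all 4, as had Airn and Lncpint. An enriched peak in each of the 8 libraries was found for 4.38% of the 4682 genes with a cluster in each, Airn, Dleu2 and Lncpint among them. Since the members were chosen with these counts known, nothing is read from them.

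Among 44 nuclear and other noncoding RNAs listed for comparison, 41 were annotated under the listed name and 30 had a cluster. Of these 9 had an enriched peak, 7 a reproducible row and 3, Neat1, Airn and Lncpint, a row in all 4 lists. The 44 include Neat1 and the 5 members, and all of those but Malat1 are among the 9 and the 7. Pvt1, a long noncoding gene beside Myc, had 2666 clusters and 71 enriched peaks, a share of 2.66%. The long noncoding genes other than the members and Neat1 had 3.01% of 26446 clusters enriched, against 13.6% in Airn, 18.6% in Dleu2, 21.6% in Lncpint, 22.1% in 2700054A10Rik and 0% in Malat1. That set still holds AC174800.1, which shares all 172 clusters and 38 enriched peaks of 2700054A10Rik. The members were chosen by their clusters and listed peaks in these same libraries. Their shares against the other genes are therefore a description, and nothing is read from them.

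The genes whose enriched peaks per 1000 were distributed over the 8 libraries most like a member's, by Pearson correlation of log2 values with 1 added among 403 other genes, were Neat1 (r = 0.96), Mtss1 (0.96) and Wbp1l (0.95) for Lncpint. For Airn they were Snd1 (0.94), Gm27533 (0.93), which lies inside Neat1, and Cdkn1a (0.93), and for Dleu2 Nectin1 (0.93) and Cald1 (0.92). For 2700054A10Rik they were the overlapping AC174800.1 (1), Ddx6 (0.89) and Tet3 (0.81). The points share the libraries and their totals, which divide every gene's count.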

How the data were processed

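PGC-1α eCLIP was run on 16 samples, of which 8 immunoprecipitated libraries are used here. The submitters' processing notes name cutadapt, STAR and mm10. No source used here gives the peak caller or says how the reproducible lists were made. Per cluster, the deposited files hold a −log10 p, capped at 400, and a log2 fold relative to input. The files have no header, so both units were inferred from the numbers. Each group also has a deposited list of reproducible peaks. Read depth is unknown, and the number of clusters limits the precision.

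From these, enriched peaks were taken (−log10 p and log2 fold of at least 3), placed by midpoint and strand in GENCODE M21, and merged into sites where they shared 1 base. A cluster inside several same-strand genes counted for each. Treatments and bands were compared by exact two-sided permutation over 36 assignments in genes with at least 8 enriched peaks, and gene portions by exact two-sided sign flips (256 with 8 libraries) in genes with both portions in at least 6 libraries, all with Benjamini-Hochberg adjustment over all genes tested. Both tests were tested on simulated data. Alternatives covered thresholds, scaling, overlap, each library left out and a replicate block. The members and lists were chosen with earlier results of these data known. Named genes are the members, Neat1, up to 6 sites per member, same-strand overlapping genes and the 3 most alike genes of each member with at least 20 enriched peaks; Pvt1 and the Malat1 windows and stretches were named after their values were seen. Not every gene that the rule takes is reported here. Python 3.11.15, numpy 2.4.6 and pandas 2.3.3 were used.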

Additional observations from a re-analysis of the deposited data

How the results depend on the processing

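Over 22 results and 280 alternatives, 258 kept their direction and 22 changed it. In the treatment and band comparisons the design allows no p under 0.0556, so their adjusted p says nothing about stability. As unscaled numbers of enriched peaks, the glucagon difference was −1.25 in Airn and −1.5 in Lncpint, and the band difference was 2.75 in Airn, 1.25 in Dleu2 and 2 in Lncpint; the library totals that the scaling divides by range from 979 to 7603. With a log2 fold of at least 4 the glucagon difference of 2700054A10Rik was 0.23 and the band difference of Dleu2 0.79. Per 1000 clusters the glucagon difference of 2700054A10Rik was 0.00100. In median log2 fold, the Airn glucagon difference was −0.064 with only clusters of −log10 p of at least 3, and the band difference of 2700054A10Rik was −0.034 with the mean; the cause was not tested.

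With 1 library left out at a time, the glucagon difference in enriched peaks of 2700054A10Rik ran from −0.51 to 0.38, and the glucagon differences in median log2 fold from −0.12 to 1.05 in Airn, −0.35 to 0.83 in Dleu2 and −0.093 to 0.061 in Lncpint. The band difference in median log2 fold of 2700054A10Rik ran from −0.17 to 0.24. The other 17 results kept their direction, though not their size: the band difference in median log2 fold ran from −1.43 to −0.26 in Airn and from −1.24 to −0.055 in Dleu2. Lncpint had too few downstream clusters for a minimum of 3 in each portion.

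Same-numbered libraries of different groups deviated together with a correlation of 0.03 to 0.11 over 875 genes. Peaks per gene were few, at least 8 over the 8 libraries, which by itself keeps such a correlation low. It therefore cannot say if same-numbered libraries share cells. The main tests did not take the numbers as pairs. With the replicate block no direction changed, the Dleu2 difference in enriched peaks was the same −0.92 (exact permutation p = 0.125, the smallest the block can give, so it is no check of stability), and the upstream minus downstream difference was 1.07 in Dleu2, 0.98 in Lncpint, −0.58 in Airn and 0.23 in Malat1. With 2 libraries per group and no read counts, differences in single sites could not be tested.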
